A study of Mus musculus with 48 samples.

Results

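The 44 genes described here encode proteins of mitosis: cyclins and mitotic kinases, the spindle checkpoint and the machinery of anaphase, the kinetochore, spindle kinesins, proteins of the spindle and of cytokinesis, and proteins that shape mitotic chromosomes. They were chosen by symbol, and all 44 were found among the 22055 genes listed in the deposited tables. Each was measured as messenger RNA (RNA-seq of polyadenylated RNA) and as ribosome footprints (Ribo-seq, which sequences the fragments of RNA that ribosomes shield from nuclease). The source was wild-type mice of the C57BL/6 strain, taken as embryos of 15.5 days (E15.5) or as young adults 42 days after birth (P42), and the organs were heart, lung, liver, kidney, brain and retina. Both assays were run on each, with 2 biological replicates in each of 24 groups, 48 libraries in all. No animal was treated, every group shared the same strain and genotype, and the labels do not say how many animals went into a sample. The values are TPM, a level per transcript length scaled to each library.

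Mitosis is driven by cyclin-dependent kinase 1 bound to A- and B-type cyclins, and sister chromatids are held together until every kinetochore is attached to the spindle. The spindle checkpoint keeps the anaphase-promoting complex and its activator Cdc20 in check, and once released this complex marks cyclin B and securin for destruction, which frees separase to cut cohesin. Most of these genes are transcribed late in the cell cycle and are silent in cells that have left it, so that their messages in a tissue are widely read as a sign of dividing cells. In bulk tissue, fewer dividing cells and less RNA per cell cannot be told apart.

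Promoters of such genes are known for a pair of short elements, the CCAAT box and the cell cycle homology region, whose core reads TTTGAA. RefSeq promoter windows, which run from 250 bases before to 50 after a transcription start, were given for 38 of the 44 members (40 windows). Cdc25c, Tpx2, Ccna2, Aurkb, Smc4 and Kif20a had no entry. Among the 10 members with the largest falls in both assays, 5 had an entry whose 120 bases before the start touch no annotated exon, and these are shown because the largest changes below belong to them. The sequences are from RefSeq on GRCm38.p6, 5′ to 3′ on the gene's own strand, and capitals mark CCAAT or TTTGAA in either orientation (ATTGG and TTCAAA on the other strand). They lie on chr11:99024190-99024309 for Top2a, chr7:135716380-135716499 for Mki67, chr9:70421555-70421674 for Ccnb2 and chr2:129297213-129297332 for Ckap2l, all on the minus strand, and on chr19:37376262-37376381, plus strand, for Kif11.
Top2a: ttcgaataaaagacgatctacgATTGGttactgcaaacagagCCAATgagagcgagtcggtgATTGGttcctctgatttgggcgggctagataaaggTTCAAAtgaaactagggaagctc
Mki67: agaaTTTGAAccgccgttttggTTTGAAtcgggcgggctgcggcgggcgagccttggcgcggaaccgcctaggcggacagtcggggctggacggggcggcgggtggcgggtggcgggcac
Ccnb2: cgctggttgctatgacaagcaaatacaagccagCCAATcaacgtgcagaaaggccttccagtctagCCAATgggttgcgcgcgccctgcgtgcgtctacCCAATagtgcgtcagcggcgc
Ckap2l: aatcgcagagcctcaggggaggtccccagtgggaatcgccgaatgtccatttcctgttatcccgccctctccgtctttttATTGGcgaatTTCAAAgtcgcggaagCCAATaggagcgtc
Kif11: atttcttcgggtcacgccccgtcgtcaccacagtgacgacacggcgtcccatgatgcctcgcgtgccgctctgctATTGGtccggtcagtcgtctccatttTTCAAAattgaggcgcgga

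Top2a carried 3 CCAAT boxes, 98, 78 and 58 bases before the start, and a TTTGAA match 23 bases before it. Ccnb2 had its 3 CCAAT boxes 87, 54 and 21 bases before the start. Ckap2l and Kif11 each held both elements, and the 120 bases of Mki67 held 2 TTTGAA matches and no CCAAT. Over the full windows, CCAAT occurred in 75.0% of the members' 40 windows against 37.4% of all 32851 windows, and TTTGAA in 80.0% against 17.9%. Both elements occurred in 67.5% of the members' windows and 7.0% of all. The windows of Birc5, Mad2l1, Pttg1, Nuf2 and Nusap1 held neither (12.5%, against 51.7% of all). A match is a description of the letters, not a bound site.

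In every tissue and at both stages the summed level of the tissue's own markers lay above that of the other tissues, so the labels matched the markers. Reads in the listed genes, recovered from the TPM steps and gene lengths, came to 22710000 to 59280000 per RNA-seq library and 9912000 to 51360000 per Ribo-seq library. These genes held 48.9% to 93.4% of the full TPM total of an RNA-seq library and 23.1% to 61.1% of a Ribo-seq library, so part of each library lies outside the tables. The lowest RNA-seq sum was that of E15.5 kidney replicate 2, where the members' levels had a median of 0.582 times those in replicate 1. Both P42 heart Ribo-seq libraries stood apart: 14 genes of male germ cells, a list chosen after these data were seen, summed to 874 and 2042 TPM there, and all 14 were higher there than in the Ribo-seq libraries of the other P42 tissues. In P42 heart RNA-seq their sum was 20.97 and 24.02 TPM, nearly all of it from Sycp3. Protamine 1 (Prm1), which packs sperm chromatin, had 127 and 290 TPM in heart footprints and 0.111 and 0.0618 TPM in heart mRNA. Smaller sums were present in P42 brain (129 and 84.3) and kidney (157 and 97.6) footprints, and in E15.5 footprints no sum was above 6.47 TPM. The lung marker sum was 723 and 2901 TPM in P42 kidney footprints but 1.79 and 1.44 TPM in kidney mRNA. In heart footprints 4 of the 5 lung markers could be tested between the stages, and all 4 rose (median 5.09). None of the 5 could be tested in heart mRNA. Of 3 kidney markers tested in heart footprints, 2 rose and none fell (median 2.91), when 10.2% of all genes rose. The part of RNA from germ cells or from other tissues in the members' footprint levels was not tested.

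From E15.5 to P42 nearly every mitosis gene fell in every tissue, at both the mRNA and the footprint level. By RNA-seq 42 of 44 members fell in brain and 43 in each other tissue, and by Ribo-seq 42 fell in brain and retina and 43 in the other tissues. Securin (Pttg1) fell in no tissue, anillin (Anln) did not fall in brain, and the condensin subunit Ncapd2 did not fall in retina footprints. A member was called when limma's Benjamini-Hochberg adjusted p was below 0.05 and the change on log2(TPM + 1) was at least 1.

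Many other genes also fell, so the members' counts are read against the share of all tested genes that fell. By RNA-seq that share was 74.6% in heart, 53.5% in lung, 47% in liver, 43.9% in kidney, 36% in brain and 24.7% in retina. By Ribo-seq it was 50.6%, 22.8%, 44%, 40.2%, 17.7% and 16.2% in the same order. All 44 members passed the filter on low values in every comparison of levels. The members' median change by RNA-seq was -4.52 in heart, -4.65 in lung, -4.96 in liver, -4.29 in kidney, -3.43 in brain and -4.88 in retina, on log2(TPM + 1), a scale that understates the change of low genes. The median over all tested genes was -1.61, -1.11, -0.89, -0.81, -0.60 and -0.23. By Ribo-seq the members' medians were -2.68, -3.41, -5.10, -4.19, -3.19 and -4.38, and those of all tested genes -1.01, -0.21, -0.85, -0.74, -0.01 and 0.08. Footprints in heart therefore showed the smallest median fall of the 6 tissues, and mRNA in heart did not.

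**Figure D1:**
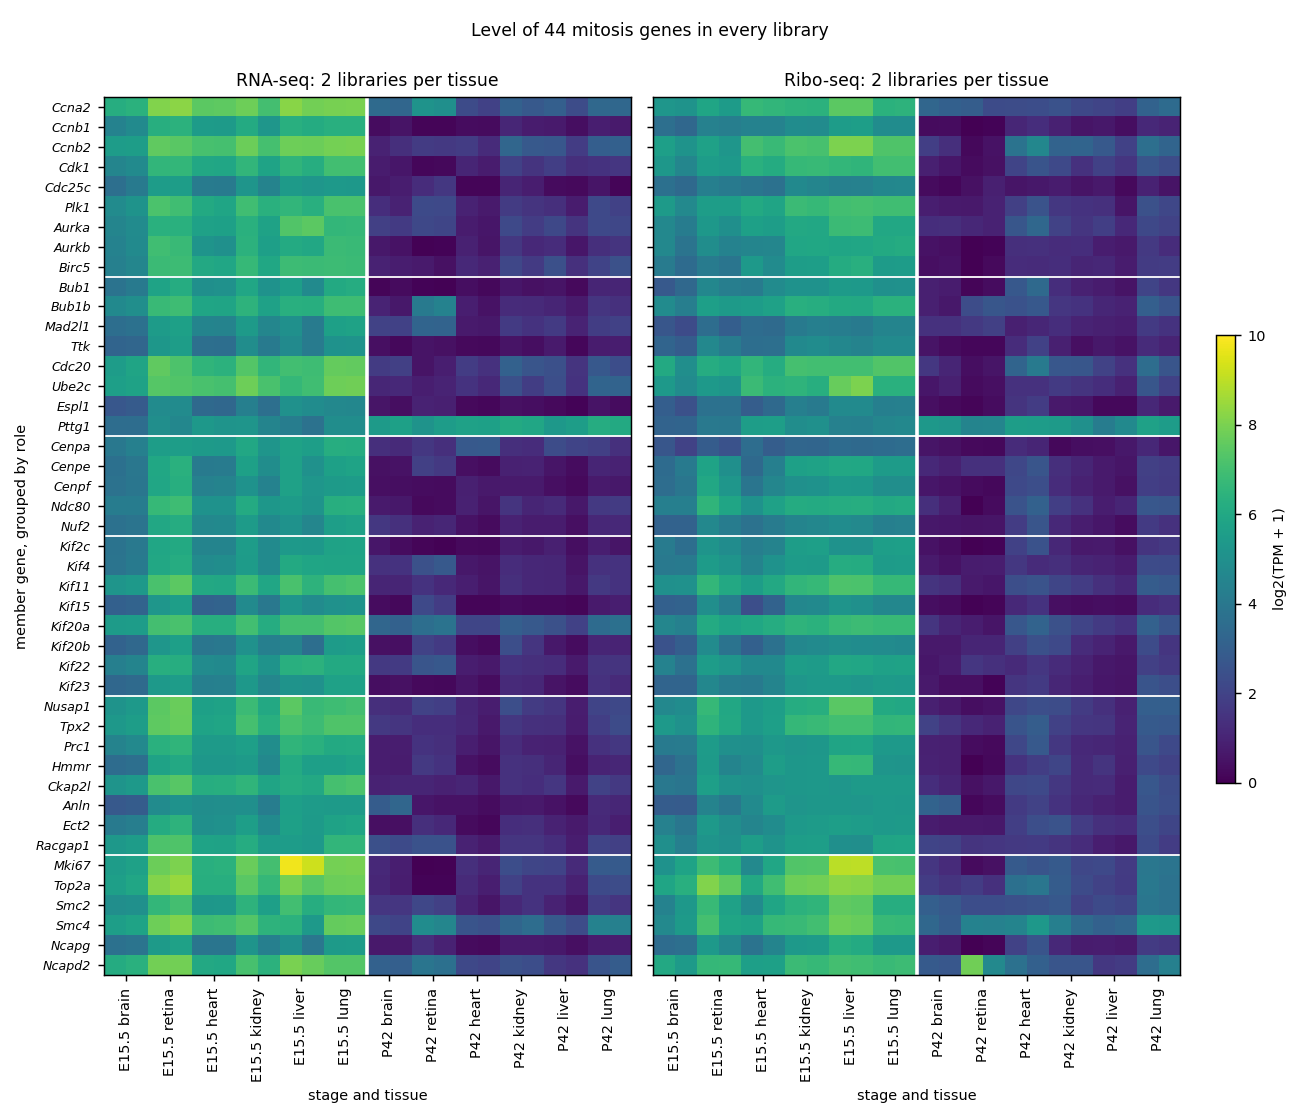
Level of each of the 44 members, in log2(TPM + 1), in every RNA-seq and Ribo-seq library; rows are genes grouped by role, columns are libraries (2 per tissue) with E15.5 on the left of each panel and P42 on the right. Pttg1 is the row that stays bright at P42 in all 6 tissues. Nearly all other rows darken, with the smallest median change in heart footprints (-2.68). Anln in brain and Ncapd2 in retina footprints were not called lower.

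**Figure D2:**
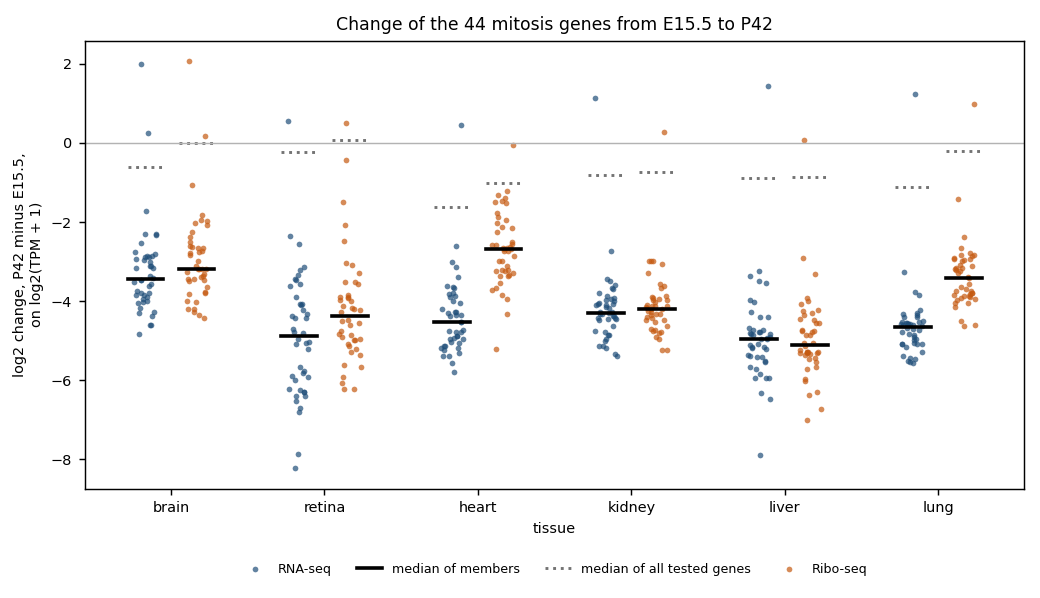
Change from E15.5 to P42 on log2(TPM + 1) for the 44 members in each tissue (1 point per gene; blue RNA-seq, orange Ribo-seq), with the median of the members (black line) and of all tested genes (dotted line). Members' medians lie between -5.10 and -2.68, and the points above 0 include Pttg1 and, in brain, Anln.

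All 9 cyclins, Cdk1 and mitotic kinases fell in all 6 tissues in both assays, with median RNA-seq changes from -3.84 in brain to -5.82 in retina. Cyclin B1 (Ccnb1), the partner of Cdk1 at mitotic entry, had 77.0 and 84.6 TPM of mRNA in E15.5 retina and 0.0926 and 0.0966 TPM at P42, a change of -6.22. In brain it went from 20.5 and 26.4 TPM to 0.252 and 0.432 TPM, in heart from 44.3 and 43.0 to 0.247 and 0.226, and in kidney from 68.7 and 37.2 to 1.08 and 0.701. In liver it went from 77.5 and 70.8 TPM to 0.672 and 0.308, and in lung from 78.1 and 77.8 to 0.776 and 0.634. The replicates of the stages did not overlap in any tissue, and the P42 levels were highest in kidney and lowest in retina. Cdk1, the kinase itself, fell from 22.5 and 26.8 TPM to 0.680 and 0.519 in brain and from 95.7 and 96.6 to 0.136 and 0.153 in retina. Heart went from 63.1 and 58.8 TPM to 1.03 and 0.715, and kidney from 95.5 and 54.3 to 2.83 and 1.82. Liver went from 92.5 and 74.2 TPM to 2.61 and 1.57, and lung from 125 and 124 to 1.74 and 1.99. Its P42 mRNA was thus lowest in retina and above 1 TPM in both libraries of kidney, liver and lung. Cdk1 footprints fell too, from between 40.0 and 45.4 TPM to 0.227 and 0.353 TPM in retina and from 124 and 126 to 5.19 and 3.98 TPM in lung. Aurkb, the kinase of the chromosomal passenger complex, was at 122 and 109 TPM of mRNA in E15.5 retina and at 0.0379 and 0.0592 TPM at P42 (2 and 3 reads), a change of -6.80.

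Of the 8 checkpoint and anaphase genes, all but Pttg1 fell in every tissue in both assays. Ube2c, the ubiquitin-conjugating enzyme that works with the anaphase-promoting complex, was among the 3 largest RNA-seq falls in brain (-4.59), heart (-5.79) and kidney (-5.33). Its mRNA in heart went from 141 and 130 TPM to 1.75 and 1.22 TPM, and its heart footprints from 113 and 84.4 to 1.67 and 1.68 TPM, with no overlap between the stages. Cdc20 in retina went from 186 and 148 TPM of mRNA to 0.448 and 0.779 TPM. Mad2l1, a checkpoint protein that binds Cdc20, changed less than its group in brain, from 11.1 and 12.3 to 2.88 and 2.84 TPM (-1.72). Exons of Ube2c, Cdc20 and 12 other members overlap another gene (Tnnc2 and Elovl1 for these 2), and since the counting strand is not given in the sources used here, reads of such pairs cannot be told apart.

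All 5 centromere and kinetochore genes and all 8 kinesins fell in all tissues in both assays. Among the kinetochore genes the median RNA-seq change was between -3.36 (brain) and -5.08 (retina). Cenpa, the histone H3 variant that marks centromeres, fell least of the 5 in heart, from 42.9 and 40.7 TPM to 6.02 and 6.15 TPM of mRNA (-2.59). Kif11, the kinesin that pushes spindle poles apart, gave the largest fall of lung, from 133 and 142 TPM to 2.13 and 1.75 TPM (-5.56). Its footprints in lung went from 102 and 102 to 6.49 and 5.83 TPM (-3.84). Neither gene's stages overlapped in these tissues.

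Of the 8 spindle and cytokinesis genes, 7 fell in brain and all 8 in the other 5 tissues, in both assays. Ckap2l, a spindle protein of neural progenitors, went from 73.2 and 75.6 TPM of mRNA in E15.5 heart to 1.05 and 0.574 TPM (-5.39), and Tpx2, which activates aurora A on spindle microtubules, from 132 and 79.2 TPM in E15.5 kidney to 2.10 and 1.601 TPM (-5.18). The fall of Tpx2 exceeded the gap between the E15.5 kidney replicates, and the stages of Ckap2l did not overlap in heart.

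The largest falls of single members were those of Top2a and Mki67, both of the chromosome structure group. Top2a, the topoisomerase that untangles sister chromatids, had 285 and 350 TPM of mRNA in E15.5 retina and 0.0619 and 0.0581 TPM (10 and 9 reads) at P42, a change of -8.22 (SE 0.246, limma adjusted p = 3.6e-18). Its mRNA went from 49.2 and 58.7 TPM to 1.13 and 0.733 in brain, from 75.2 and 75.1 to 1.30 and 0.775 in heart, and from 175 and 101 to 2.77 and 1.76 in kidney. In liver it went from 247 and 167 TPM to 1.78 and 0.907, and in lung from 217 and 220 to 3.70 and 3.96. At P42 lung had the highest and retina the lowest Top2a mRNA, with no overlap between those 2 tissues. Retina footprints of Top2a went from 274 and 181 TPM to 2.42 and 1.597 TPM (351 and 256 reads). An annotated small nucleolar RNA, Gm23451, lies within exons of Top2a on the same strand.

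Mki67, the coat protein of mitotic chromosomes known as Ki-67, had the highest level of any member at E15.5, in liver, with 873 and 597 TPM of mRNA, and fell there to 3.07 and 1.30 TPM (-7.89, SE 0.246, limma adjusted p = 6.0e-18). In retina it went from 216 and 262 TPM to 0.0111 and 0.0289 TPM (2 and 5 reads), a change of -7.87. Brain went from 44.5 and 51.6 TPM to 1.24 and 0.811, and heart from 77.8 and 81.8 to 1.57 and 1.07. Kidney went from 206 and 130 TPM to 4.13 and 3.24, and lung from 237 and 247 to 6.25 and 6.07. Lung thus kept the highest P42 level, above 6 TPM in both libraries, and retina the lowest. Footprints of Mki67 went from 501 and 518 to 3.66 and 2.35 TPM in liver and from 140 and 137 to 14.7 and 13.5 TPM in lung. Of the condensin subunits, Ncapd2 fell by 6.32 on the log2 scale in liver mRNA, from 252 and 206 to 2.05 and 1.71 TPM.

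Retina footprints of Ncapd2 were at 100 and 104 TPM in embryos and at 224 and 25.1 TPM in adults, so the P42 replicates lay on both sides of the embryonic level (change -0.43, SE 0.58, limma adjusted p = 0.54). Without P42 replicate 1 the change was -1.99, and without replicate 2 it was 1.13. Retina mRNA of Ncapd2 went from 230 and 233 to 13.9 and 11.8 TPM, a fall as in the other tissues. Scarna10, annotated as a small nucleolar RNA, lies in exons of Ncapd2 on the same strand, and its part in the footprint value was not tested.

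Securin did not follow the other members: its mRNA was higher at P42 than at E15.5 in 4 tissues and in no tissue lower. Pttg1 (ENSMUSG00000020415.16, chromosome 11, 43420250 to 43426251, minus strand) encodes the inhibitor of separase that is destroyed at anaphase. In brain its mRNA went from 10.8 and 10.9 TPM in embryos to 42.9 and 49.8 TPM in adults, a rise of 1.99 (SE 0.213, limma adjusted p = 2.6e-08) when 11.7% of all tested genes rose. Lung went from 28.6 and 29.3 to 72.1 and 66.7 TPM (1.23), liver from 18.0 and 12.6 to 39.3 and 46.9 TPM (1.45) and kidney from 36.4 and 21.8 to 66.5 and 59.7 TPM (1.13). In these 4 tissues both P42 libraries lay above both E15.5 libraries. Genes that rose by RNA-seq made up 10.1% in lung, 13.4% in liver and 13.1% in kidney. The kidney call was lost without E15.5 kidney replicate 2 (0.78). It was also lost when the listed nuclear genes of each library were scaled to an equal sum (0.89). Retina (29.4 and 23.7 to 33.7 and 45.5 TPM, 0.55) and heart (39.5 and 35.2 to 51.7 and 50.9 TPM, 0.45) were not called (18.6% and 2.73% of all genes rose), although both P42 libraries were the higher ones. The heart change was called as a rise when libraries were rescaled by median of ratios (2.44) or to an equal sum (1.39), or when the change was centred on the median gene (2.06).

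Footprints on Pttg1 rose in brain, from 8.02 and 8.40 to 39.3 and 36.1 TPM (2.07, SE 0.187, limma adjusted p = 3.1e-08), where 20.2% of all genes rose. In lung they went from 23.3 and 24.4 to 51.7 and 44.6 TPM, a change of 0.98 that fell just short of 1. Retina (15.5 and 15.1 to 21.8 and 22.7 TPM), kidney (28.6 and 31.6 to 42.4 and 31.4), liver (20.3 and 19.7 to 17.3 and 26.1) and heart (46.7 and 47.97 to 46.0 and 45.3) were not called, with changes of 0.51, 0.27, 0.08 and -0.05. In these 5 tissues 18.6% (lung), 21.3%, 12.2%, 10.2% and 10.2% of all genes rose. Replicates of the stages overlapped in liver and kidney. Ribosome loading of Pttg1, the log2 difference of Ribo-seq and RNA-seq, fell in liver from 0.38 to -0.98 (change -1.37, SE 0.283, limma adjusted p = 4.5e-04), where 19.6% of tested genes fell in loading. With equal sums the change was -0.89 and not called.

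Separase (Espl1, ENSMUSG00000058290.4, chromosome 15, 102296266 to 102324357, plus strand), the protease that securin holds inactive, fell in all 6 tissues in both assays. Its mRNA went from 5.62 and 6.28 TPM to 0.467 and 0.285 TPM in brain (-2.34) and from 32.4 and 28.5 to 0.205 and 0.0671 TPM in liver (-4.79). Its smallest fall was in heart footprints, from 6.64 and 9.63 to 1.83 and 2.44 TPM (-1.53). At P42 the TPM of Pttg1 mRNA was above that of Espl1 in every library, and its lowest P42 value, 33.7 TPM in retina, lay above the highest E15.5 value of Espl1, 32.4 TPM in liver.

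**Figure D3:**
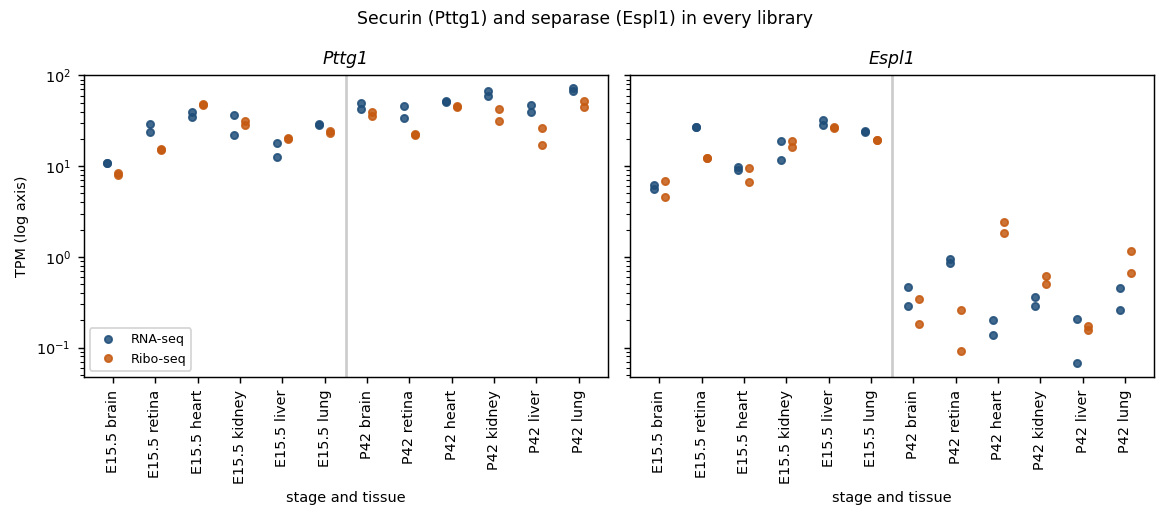
TPM of Pttg1 (left) and Espl1 (right) in every library on a shared log axis, by stage and tissue, with 2 RNA-seq (blue) and 2 Ribo-seq (orange) points per group. Pttg1 mRNA at P42 lies between 33.7 and 72.1 TPM in all tissues, and Espl1 mRNA at P42 lies below 1 TPM in all.

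Anillin (Anln, ENSMUSG00000036777.8, chromosome 9, 22332012 to 22389188, minus strand), the scaffold of the cleavage furrow, was called neither lower nor higher in brain. Its brain mRNA went from 5.97 and 6.48 TPM to 6.43 and 8.90 TPM (change 0.25, SE 0.206, limma adjusted p = 0.28), and its footprints were 6.50 and 6.41 TPM and then 8.02 and 6.73 TPM (0.16, SE 0.215, limma adjusted p = 0.53). In the other 5 tissues its mRNA fell by 3.95 to 5.20 on the log2 scale. At P42 brain mRNA of Anln exceeded the mean of the other 5 tissues by 2.48 and its footprints by 1.72, and it was the only member higher in brain, where 30.5% of all genes were higher by RNA-seq and 29.3% by Ribo-seq. The sum of 6 markers of oligodendrocyte precursors was 155 and 126 TPM in E15.5 brain and 453 and 489 TPM at P42. Mbp, the myelin basic protein, went from 14.4 and 13.2 to 1191 and 1586 TPM in brain mRNA. The part of these cells in the Anln level was not tested.

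What was left at P42 was small and uneven. The median member kept 3.93% of its E15.5 mRNA level in brain, 2.86% in kidney, 2.33% in lung, 1.83% in retina, 1.58% in heart and 1.35% in liver. For footprints the medians were 5.12%, 3.17%, 6.99%, 1.02%, 13.3% and 1.53%. The median share was thus larger for footprints than for mRNA in every tissue but retina. Members with a mean of at least 1 TPM of mRNA at P42 numbered 35 in lung, 32 in kidney, 26 in retina, 22 in brain, 21 in liver and 12 in heart. By footprints they numbered 41, 34, 14, 19, 21 and 42. The summed mRNA of all 44 went from 4909 to 208 TPM in retina, from 4525 to 204 in lung, from 4231 to 105 in liver, from 3024 to 162 in kidney, from 2199 to 96.5 in heart and from 1191 to 124 TPM in brain (means of 2 libraries). Pttg1 made up a large part of these adult sums. Without it 168 TPM were left in retina, 135 in lung, 99.1 in kidney, 77.5 in brain, 61.9 in liver and 45.2 in heart. Retina had the highest mean mRNA of 17 members at P42, lung of 16, kidney of 7, and brain and heart of 2 each. The highest mRNA at P42 was Pttg1 in every tissue, followed by Ccna2 and Kif20a in brain, Ccna2 and Smc4 in retina, Cenpa and Smc4 in heart, Smc4 and Ccnb2 in kidney, Ccna2 and Smc4 in liver, and Smc4 and Kif20a in lung.

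Among adult tissues, lung had the most members at 1 TPM of mRNA or more. By RNA-seq 5 members were higher in P42 lung than in the mean of the other 5 tissues, where 18.7% of all genes were, and none was lower. They were Ube2c (8.28 and 8.12 TPM, difference 1.72), Mki67 (1.62), Smc4 (20.5 and 19.5 TPM, 1.33), Top2a (1.28) and Ccnb2 (7.03 and 7.33 TPM, 1.10). Mki67 and Top2a in lung exceeded every library of the other 5 tissues, while the retina libraries of Smc4 (28.0 and 23.3 TPM) lay above those of lung. By Ribo-seq 20 members were higher, where 24.5% of all genes were, and the 5 named were among them. The largest footprint differences were those of Mki67 (2.13), of Kif23, a kinesin of the midbody (5.09 and 4.26 TPM, 1.71), and of Nusap1, a spindle protein (7.05 and 7.24 TPM, 1.70). The median difference of the 44 was 0.39 by RNA-seq, when that of all genes was -0.06, and 0.91 by Ribo-seq, when it was 0.31.

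These lung counts depend on scale and on single libraries: the Ribo-seq count was 4 under median-of-ratios scaling, 3 with equal sums, 12 without P42 lung replicate 1, and 28 with heart left out of the comparison, 20 of them shared. Of all genes, 23.7% were higher in lung footprints with heart left out. Counting only members whose exons overlap no other gene left 11 by Ribo-seq and 3 by RNA-seq in the full comparison. Leukocyte and endothelial markers were also highest in lung, with summed mRNA of 6916 and 6004 TPM and of 1517 and 1292 TPM, against at most 232 and 240 TPM in any other P42 library, and their part in the lung values was not tested.

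Adult retina was high in the mRNA of some members and near 0 for others. By RNA-seq 9 members were higher than the mean of the other 5 tissues, a smaller share than the 46.9% of all genes that were, and 6 were lower, where 12.5% of all genes were. The highest difference was that of Bub1b, the checkpoint kinase BubR1, with 16.3 and 20.7 TPM in retina and at most 1.89 TPM in any other P42 library (3.27, SE 0.161, limma adjusted p = 1.4e-14). Ccna2 had 33.9 and 30.5 TPM (2.16), Smc4 1.73, Mad2l1 8.38 and 8.19 TPM (1.73) and the kinesin Kif15 3.601 and 2.40 TPM (1.66). Kif4, Kif22, Ncapd2 and Cenpe followed with 1.53, 1.44, 1.40 and 1.14. For Bub1b, Ccna2, Smc4, Mad2l1 and Kif15, the largest differences, both retina libraries lay above all other P42 RNA-seq libraries. The share of all genes for which this held is not given here. Exons of Ccna2, Kif4, Kif22 and Ncapd2 overlap another gene, and 5 of the 9 remained when such members were left out. Exosc9, which overlaps Ccna2, had 20.5 and 24.2 TPM of mRNA in P42 retina. With median-of-ratios scaling 2 members were higher. The lower ones were Mki67 (-1.75), Cdc20 (-1.48), Top2a (-1.34), Cdk1 (-1.09), Birc5 (-1.01) and Ube2c (-1.01).

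Of these 9 members, 1 was also higher in footprints. By Ribo-seq only Ncapd2 was higher in P42 retina (15.5% of all genes were), on the replicates of 224 and 25.1 TPM given above. There 21 members were lower (18.8% of all genes), 12 of them also with heart left out of the comparison (20.3% of all genes). Retina footprints of Kif15 were 0.0339 and 0.102 TPM beside 3.601 and 2.40 TPM of mRNA, and those of Bub1b 4.08 and 5.35 TPM beside 16.3 and 20.7. Loading of Kif20a, a kinesin of the central spindle, fell in retina from -1.10 at E15.5 to -3.04 at P42 (change -1.94, SE 0.310), and that of Kif4 by 1.08. With a pseudocount of 4 these were -0.75 and -0.24 and not called. Exons of Kif20a overlap Cdc23, which had 25.4 and 24.1 TPM of mRNA in P42 retina, and those of Kif4 overlap Pdzd11 (46.2 and 55.002 TPM). The share of tested genes whose loading fell was 1.87%. In P42 retina 5 members had a footprint library with no read (Birc5, Ccnb1, Hmmr, Ncapg and Ndc80), and 11 had one under 10 reads, so their adult levels there are set by few reads. The sum of 9 neural progenitor markers was 408 and 408 TPM of mRNA in P42 retina, the highest among P42 tissues, against 3121 and 3018 TPM at E15.5. The part of cells with these markers was not tested.

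**Figure D4:**
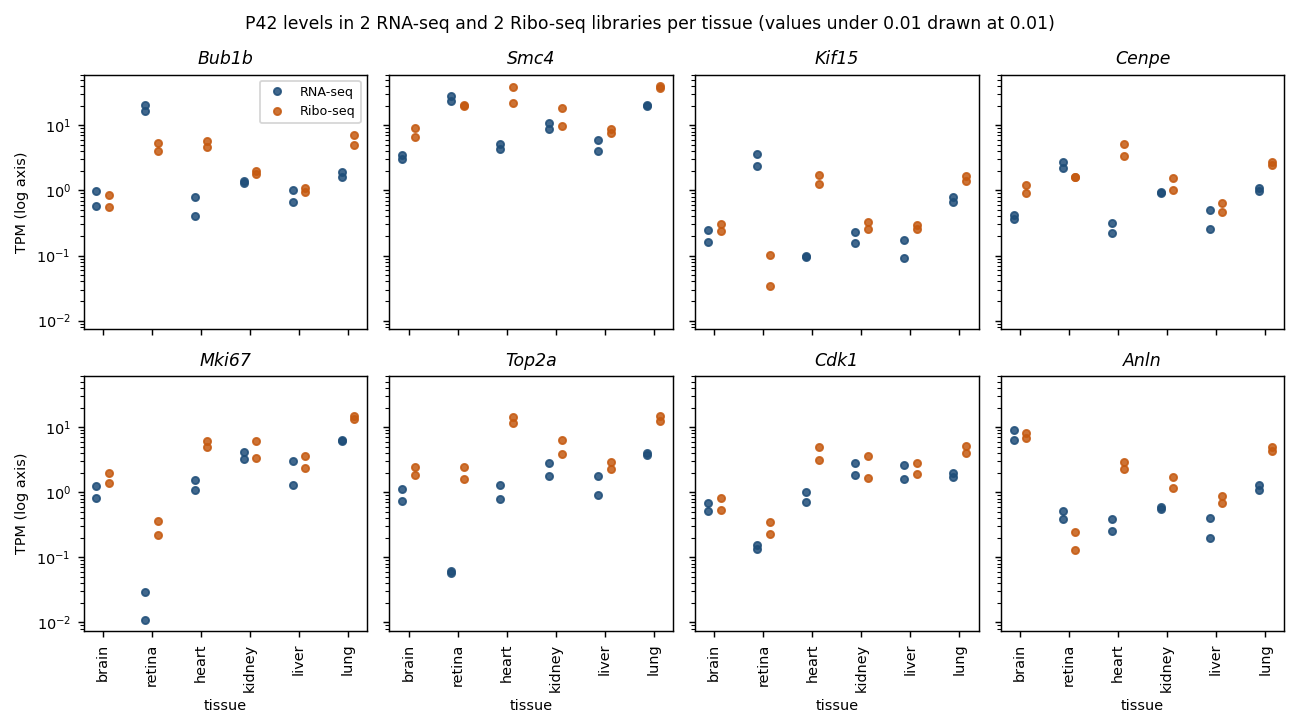
TPM at P42 of 8 members in each tissue on a shared log axis, with 2 RNA-seq (blue) and 2 Ribo-seq (orange) points per tissue; values under 0.01 are drawn at 0.01. In retina Bub1b mRNA is at 16.3 and 20.7 TPM while Mki67 mRNA is at 0.0111 and 0.0289 TPM, and Anln is highest in brain.

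In adult heart the assays differed. By RNA-seq only Cenpa was higher than in the other tissues (6.02 and 6.15 TPM against at most 4.05 TPM elsewhere, difference 1.24, where 4.47% of all genes were higher, but 0.74 and not called with a pseudocount of 4), and 6 members were lower, when 55.3% of all genes were. By Ribo-seq 16 members were higher and none was lower, when 9.48% of all genes were higher. The largest differences were those of Bub1, a checkpoint kinase (5.83 and 9.76 TPM of footprints, 2.16), of the B-type cyclin Ccnb2 (12.97 and 23.7 TPM, 2.02) and of Cdc20 (8.28 and 16.1 TPM, 1.79). For Bub1 and Ccnb2 both heart libraries lay above all other P42 Ribo-seq libraries, and replicate 2 was the higher one for all 3, as it was for the germ cell markers (2042 against 874 TPM). Heart mRNA of the 3 was 0.276 and 0.154, 2.46 and 1.34, and 2.45 and 1.72 TPM. Without heart Ribo-seq replicate 2 the count of higher members was 10, and under the 2 rescalings it was 33 and 35. The part of footprints from germ cells or from other tissues in these values was not tested.

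**Figure D5:**
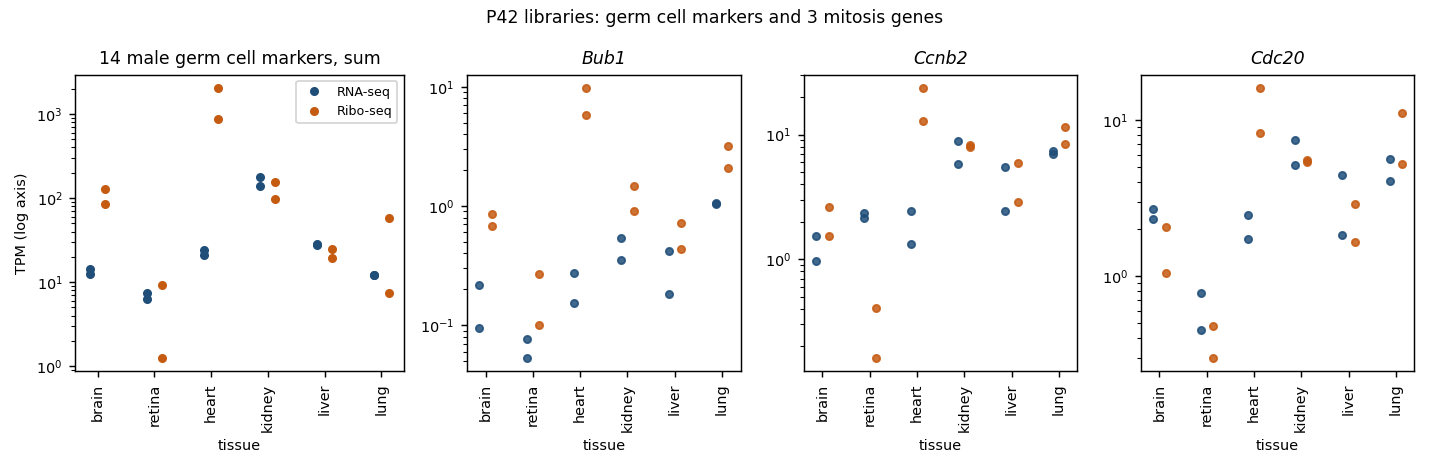
Summed TPM of 14 male germ cell markers (left) and TPM of Bub1, Ccnb2 and Cdc20 at P42, by tissue on log axes that differ between panels, with 2 RNA-seq (blue) and 2 Ribo-seq (orange) points per tissue. Heart footprints stand highest for the markers (874 and 2042 TPM), for Bub1 and for Ccnb2, and heart mRNA does not.

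Kidney, liver and brain held fewer members above the rest. In P42 kidney mRNA Kif20b (4.22 and 1.93 TPM, 1.16), Cdc20 (7.50 and 5.14 TPM, 1.13) and Ccnb2 (8.84 and 5.86 TPM, 1.11) were higher, when 14.9% of all genes were. None of the 3 was called without P42 kidney replicate 1, the higher library of each. By Ribo-seq no member was higher in kidney (12.8% of all genes), and 2 were when heart was left out (13.1% of all genes). Liver had none in either assay (8.93% and 7.77% of all genes), and Ncapd2 was lower there by RNA-seq (-1.31, 39.3% of all genes). By Ribo-seq Ncapd2 (-2.14), Smc4 (-1.12) and Bub1b (-1.04) were lower in liver, when 35.1% of all genes were. Only Ncapd2 was lower there with heart left out (42.1% of all genes). In brain Ccnb2 (-1.14) and Smc4 (-1.43) were lower by RNA-seq, when 10.7% of all genes were, and 5 members by Ribo-seq, when 9.93% were, Bub1b the most at -1.34. With heart left out 2 of the 5 were, Bub1b and Smc4, when 12% of all genes were.

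At E15.5, most mitosis genes had their lowest level in brain. By RNA-seq 42 of 44 members were lower in E15.5 brain than in the mean of the other 5 tissues, where 11.4% of all genes were, and 42 had their lowest tissue mean there. Racgap1 (-0.73) and Ncapd2 (-0.91) were not called. By Ribo-seq 40 were lower (9.65% of all genes). The members' median difference in brain was -1.48 by RNA-seq and -1.42 by Ribo-seq, when that of all genes was 0.22 and 0.

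The highest tissue at E15.5 differed between the assays. Retina had the highest mean mRNA of 25 members, lung of 13, liver of 5 and heart of 1 (Pttg1), while footprints of 28 members were highest in liver. By RNA-seq 18 members were higher in retina, where 17.8% of all genes were, among them Ndc80, a kinetochore subunit that binds microtubules (103 and 117 TPM, 1.47), Racgap1 (146 and 152 TPM, 1.41) and Top2a (1.40). Only 1 was called with median-of-ratios scaling and 10 with equal sums. In retina footprints none was higher (4.71% of all genes) and Ccnb2, Birc5 and Ube2c were lower (23.3%). Without rescaling, none of the 18 was thus called in retina footprints as higher. This depends on scale: under both rescalings some members were called higher in retina footprints, and the lower calls were lost. Of all Ribo-seq libraries, E15.5 retina replicate 2 had the lowest share of its TPM total in the listed genes (23.1%).

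In E15.5 liver 4 members were higher by RNA-seq, when 11% of all genes were: Mki67 (2.47), the kinase Aurka (153 and 177 TPM, 1.48), Espl1 (1.05) and Anln (1.01). Smc4 was lower (-1.09), when 38.2% of all genes were, but not with median-of-ratios scaling or without E15.5 liver replicate 2. The count of higher members was 2 without E15.5 kidney replicate 2 and 7 without liver replicate 2. By Ribo-seq 18 were higher (11.4% of all genes), led by Mki67 (2.65), Ube2c (201 and 260 TPM, 1.89) and Hmmr, a spindle protein (103 and 99.3 TPM, 1.83). For Mki67 and Ube2c both liver footprint libraries lay above those of all other tissues. The liver counts rose to 28 and 30 with median-of-ratios scaling, and the Ribo-seq count fell to 3 with equal sums. The fetal liver is a site of blood formation, and 14 erythroid markers summed to 111475 and 125699 TPM of mRNA there, against at most 6480 TPM in another E15.5 library. Their part in the members' levels was not tested. Lung had 5 higher members by RNA-seq (Kif20b, Aurkb, Mad2l1, Kif23 and Cdk1, 1.01 to 1.25, when 13.4% of all genes were) and 1 by Ribo-seq (Aurkb, 9.83%). The RNA-seq count for lung was 0 with median-of-ratios scaling, 1 with equal sums and 2 with a pseudocount of 4. It was 8 without replicate 1 of E15.5 kidney or of liver, and 2 and 3 without replicate 2 of these. The Ribo-seq count for lung ranged from 0 to 3 with single libraries left out. Heart had 5 lower by RNA-seq (18.4%), Kif15 the most at -1.47, and 4 lower by Ribo-seq (8.56%), again with Kif15 at the front (-1.65), and its Pttg1 footprints were higher (1.35, 9.82%). The RNA-seq count for heart was 11 without E15.5 kidney replicate 2, and the Ribo-seq count was 2 without heart replicate 1 and 9 without heart replicate 2. No member was lower in lung (7.06% of all genes by RNA-seq, 4.62% by Ribo-seq). Kidney had none in either direction, when 7.85% of all genes were higher and 5.39% lower by RNA-seq, and 9.75% and 1.75% by Ribo-seq.

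The size of the fall differed among tissues for 43 of 44 members in each assay (F test of the interaction, limma adjusted p below 0.05), as it did for 98.3% of all tested genes by RNA-seq and 93% by Ribo-seq. Smc4 mRNA (adjusted p = 0.062) and Cdk1 footprints (adjusted p = 0.051) were the members not called by limma. The largest F was that of Anln in both assays, with no call in brain and a fall of 5.20 in liver mRNA. By RNA-seq 39 members had the smallest fall or, for Pttg1, the largest rise in brain, and the largest fall of 19 was in retina and of 16 in liver. By Ribo-seq the smallest fall of 29 members was in heart.

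Ribosome loading of the members at E15.5 lay above that of most genes in all 6 tissues. TPM in both assays was scaled to the whole exon length of a gene, untranslated parts included. Loading compared between genes therefore also depends on the coding share of that length, and its part was not tested. The median log2 difference of Ribo-seq and RNA-seq over the 44 was 0.03 in kidney, 0.00 in liver, -0.24 in heart, -0.25 in brain, -0.52 in lung and -1.18 in retina. Over all genes tested it was -0.88, -0.79, -0.90, -1.49, -1.31 and -2.01, and 40, 41, 39, 43, 38 and 35 members lay above it. Cenpa had the lowest loading of the 44 in every tissue, from -2.84 in retina to -1.84 in brain. The highest was that of Top2a in brain, kidney and lung, of Cenpf in retina, of Pttg1 in heart and of Smc4 in liver. Loading differed among tissues for 38 of 44 members (limma F test), when it did for 91% of all genes. The widest range was that of Smc4, the condensin ATPase, at 1.82 in liver and -1.48 in retina, followed by Ube2c at 1.05 and -2.04 in the same tissues. The count was 7 with median-of-ratios scaling, 19 with equal sums and 20 with a floor of 20 TPM of mRNA. A change of loading between the stages could be tested for 2 to 9 members per tissue, those with at least 5 TPM of mRNA at both stages. In lung it rose for Mki67 (1.88), Smc4 (1.85), Ncapd2 (1.72), Ccna2 (1.4997) and Ccnb2 (1.09), when 39.4% of tested genes rose. The lung count was 1 with median-of-ratios scaling, 3 with equal sums, 3 without P42 lung RNA-seq replicate 1 or E15.5 lung Ribo-seq replicate 1, and 0 with the floor of 20 TPM. In retina Ncapd2 rose (3.64) on its discordant replicates, when 11.8% did, and no member was called there with that floor.

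Genes of the same pathways outside the 44 moved less uniformly. Their RNA-seq counts are to be read against the share of all tested genes that fell, 74.6% in heart, 53.5% in lung, 47% in liver, 43.9% in kidney, 36% in brain and 24.7% in retina, and their footprint counts against 50.6%, 22.8%, 44%, 40.2%, 17.7% and 16.2%. Of 71 other spindle, kinetochore and mitotic exit genes, 64 fell by RNA-seq in brain and retina, 69 in kidney and liver and 71 in heart and lung. Cit, the citron kinase of the midbody, rose in brain, from 7.04 and 5.96 to 17.5 and 23.0 TPM (1.49), and in its footprints (1.40). By footprints Zwint rose in brain (1.59) and Spc25 in retina (1.05), both kinetochore genes, with mRNA changes of 0.76 and -0.45 that were not called. Of 10 genes of cohesin, the ring that separase opens, and of its loaders and regulators, 6 fell in retina mRNA and 10 in each other tissue. Their footprints fell in 0 cases in brain and retina, 7 in heart and kidney, 10 in liver and 1 in lung. The anaphase-promoting complex was covered by 15 genes, its activator Fzr1 included. Of these, 14 fell by RNA-seq in heart, 12 in lung and in liver, 11 in kidney, 9 in brain and 5 in retina. The retina count is near the share of all genes. By footprints 13 fell in heart, 7 in lung, 11 in liver, 10 in kidney, 3 in brain and 2 in retina (14 or 15 tested). Those of brain and retina are near the share of all genes.

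Of 21 transcription factors of cell cycle genes, 19, 18, 17, 17, 13 and 16 fell by RNA-seq in the same order and none rose (20 were tested in liver). By footprints 15, 8, 19, 15, 5 and 9 fell, with 19 or 20 tested per tissue, and none rose. Foxm1 and Mybl2, activators of late cell cycle genes, fell in all 6. Foxm1 mRNA in retina went from 112 and 114 TPM to 0.466 and 0.506 TPM (-6.26), with no overlap. E2f1 fell in 5 tissues, and in brain its mean went from 20.6 to 15.5 TPM (-0.39, not called). Of 10 cell cycle inhibitors and pocket proteins, 8, 4, 7, 4, 5 and 4 fell by RNA-seq, with 8 or 9 tested per tissue. The counts of 4 in lung and kidney were near or below the share of all genes that fell there. Cdkn1c, an inhibitor of cyclin-dependent kinases, had the largest falls, in kidney (-5.22), liver (-4.89) and brain (-4.50). Cdkn1a, the inhibitor p21, rose in lung from 16.6 and 14.8 to 116 and 173 TPM (3.10). Cdkn2b, the inhibitor p15, rose in lung from 2.85 and 4.18 to 29.3 and 22.6 TPM (2.58) and in kidney from 1.44 and 0.607 to 2.59 and 5.02 TPM (1.23). The pocket protein gene Rbl2 rose in retina, from 16.1 and 17.4 to 43.8 and 37.3 TPM (1.23). In these 4 cases both P42 libraries lay above both E15.5 libraries.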

How the data were processed

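Ribo-seq and RNA-seq libraries of 6 tissues at 2 stages were analysed as TPM, deposited by the authors in 4 tables of 12 libraries. Per the submitters' processing notes, CASAVA 1.8.2, cutadapt 1.8.1, TopHat2 2.0.14 and featureCounts 1.6.2 were used with GRCm38.p6; the counting strand is not given in the sources used here. Per the labels' protocols, ribosomal RNA was depleted for footprints, and mRNA libraries were made from poly(A) RNA. Members and gene lists were chosen with earlier results of these data known. All 44 members matched GENCODE M21 identifiers without the version, and coordinates are those of that annotation.

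Values were analysed as log2(TPM + 1) with limma 3.58.1 (R 4.3.3; variance trend, Benjamini-Hochberg adjustment over all tested genes) over the 24 libraries of an assay, or both assays for ribosome loading, with a mean per tissue and stage. The fits had 12 and 24 residual degrees of freedom. Genes needed 1 TPM in 2 libraries, for stages also a mean of 1 TPM in the tissue, and for loading 5 TPM of mRNA. Genes were called at an adjusted p under 0.05 with a change of 1 or more on the log2 scale; F tests needed the p alone. The deposited TPM times the GENCODE exon length came within 0.05 reads of a whole number for 95.7% to 97.1% of values under 30 reads; these reads were used for depth only, and P42 heart Ribo-seq replicate 2 was the shallowest library at 9912000 reads. Replicates differed beyond counting error in all 24 pairs, and p-values measure the spread between these samples.

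Members named are the 3 largest falls per tissue, all not called lower, the largest P42 levels and excesses, and called loading changes. Alternatives were pseudocounts of 0.25 and 4, median-of-ratios and equal-sum scaling, a replicate block and no variance trend. Others were no filter or a filter of 5 TPM, centring, and each library left out. Equal-sum scaling set the listed nuclear genes of each library to the same sum and left out mitochondrially encoded genes. Members overlapping other genes, and P42 heart footprints, were left out as alternatives added after seeing the data. Scripts were tested on simulated data. Python 3.11.15, numpy 2.4.6, pandas 2.3.3 and matplotlib 3.10.9 were used.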

Additional observations from a re-analysis of the deposited data

Results flagged for a closer look

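The change from E15.5 to P42 differed among the 6 tissues, by the F test of the interaction in limma, for 43 of 44 members by RNA-seq and 43 of 44 by Ribo-seq. The same was true of 98.3% and 93% of all tested genes. In no group could a single library be tested as an outlier, because each has 2.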

How the results depend on the processing

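Counts of members that fell from E15.5 to P42 stayed within 1.5 times under all 120 alternatives, and so did the interaction counts under 16. Of 61 single-gene results, 479 of 515 values under other settings kept their call, 24 lost it, 9 gained it and 3 reversed; with a library left out, 1659 of 1679 kept it, 15 lost it, 3 gained it and 2 reversed. Causes were not tested.

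Reversed values were those of Pttg1 in heart Ribo-seq, 1.26 with median-of-ratios scaling, 1.05 with equal sums and 0.96 centred, of Pttg1 in liver Ribo-seq, -0.20 without P42 replicate 2 (0.37 without replicate 1), and of Ncapd2 in retina Ribo-seq, 1.13 without P42 replicate 2 (-1.99 without replicate 1).

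Members higher at P42 by RNA-seq numbered 3 in brain, 17 in retina, 9 in kidney and 12 in lung with a pseudocount of 0.25, and 5 in retina, 0 in heart, 0 in kidney and 2 in lung with 4. With median of ratios they were 2 in retina, 3 in heart, 1 in kidney and 3 in liver, and with equal sums 2 in heart. By Ribo-seq they were 2 in retina, 28 in heart, 2 in kidney and 31 in lung with 0.25, and 0 in brain, 4 in heart and 4 in lung with 4. With median of ratios they were 33 in heart, 1 in liver and 4 in lung, and with equal sums 3 in retina, 35 in heart and 3 in lung. Without overlapping members they were 5 in retina and 3 in lung by RNA-seq, and 0 in retina and 11 in lung by Ribo-seq; kidney Ribo-seq had 2 without heart.

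Members higher at E15.5 by RNA-seq were 2 in liver and 2 in lung with a pseudocount of 4; 1 in retina, 1 in heart, 28 in liver and 0 in lung with median of ratios; and 10 in retina, 1 in heart and 1 in lung with equal sums. By Ribo-seq they were 2 (0.25) and 0 (4) in lung, 4 in retina, 30 in liver and 0 in lung with median of ratios, and 7 in retina and 3 in liver with equal sums. Lower members were 1 in heart and 0 in liver by RNA-seq and 0 in retina by Ribo-seq with median of ratios, and 3 in heart by RNA-seq and 0 in retina, 9 in heart and 1 in liver by Ribo-seq with equal sums. Without overlapping members 3 were lower in heart by RNA-seq.

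Loading changes were 1 in brain with 0.25; 1 in brain, 4 in heart, 2 in liver and 1 in lung with median of ratios; 1 in brain, 4 in heart, 0 in liver and 3 in lung with equal sums; 23 in lung, 9 in heart, 7 in retina, 3 in brain, 2 in liver and 1 in kidney without the filter; and 0 in retina and lung with the stricter one. Loading differed among E15.5 tissues for 7, 19 and 20 members with median of ratios, equal sums and the stricter filter.

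With each library left out, counts ranged at P42 from 0 to 4 in kidney, 0 to 1 in liver (RNA-seq), 10 to 21 in heart, 0 to 1 in kidney and 12 to 23 in lung (Ribo-seq). At E15.5 higher members ranged from 2 to 7 in liver and 2 to 8 in lung (RNA-seq), 0 to 1 in retina and 0 to 3 in lung (Ribo-seq). Lower members ranged from 4 to 11 in heart and 0 to 1 in liver (RNA-seq), and 2 to 9 in heart (Ribo-seq). Loading changes ranged from 0 to 1 in brain, heart and kidney and 3 to 5 in lung.

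Replicate numbers were not used to pair samples in the main fits. Deviations of same-numbered libraries correlated at -0.282 to 0.416 between assays (6 of 12 pairs over 0.1) and -0.488 to 0.297 between stages (4 of 12). With 2 replicates a group, these values cannot settle whether same-numbered libraries came from the same samples. With the replicate block the count of members that fell by RNA-seq was 42 in brain and 43 in every other tissue, as without it. With 2 replicates a group, and under 10 reads for several members in P42 retina, small adult differences were not detectable at this depth.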
